A study of Homo sapiens and Mus musculus with 24 samples.

Results

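The transcripts followed here are 9 genes that carry interferon signals from the cell surface to the nucleus: the receptor chains IFNGR1, IFNGR2, IFNAR1 and IFNAR2, the kinases JAK1 and JAK2, the transcription factor STAT2 and the interferon regulatory factors IRF1 and IRF9. They were picked by name, as a receptor-to-nucleus set, by a rule that uses no measured value, though with earlier results of these data known. All 9 were found among the 58051 gene identifiers counted in the human libraries and among the 29307 counted in the mouse libraries. They were compared in Caco-2 cells, a human colorectal adenocarcinoma line with enterocyte features, and in mouse colon epithelium.

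The Caco-2 groups were unedited cells (WT, 4 libraries), a clone in which DNMT3A had been disrupted by CRISPR-Cas9 (ΔDNMT3A, 4 libraries), and ΔDNMT3A cells given back the TY1-tagged long isoform (DNMT3A1, 3 libraries) or short isoform (DNMT3A2, 4 libraries). Both isoforms were carried by a piggyBac vector with a CMV promoter, and the isoform lines were grown from diluted cells under puromycin. Line, clone and selection therefore cannot be told apart from the gene in these comparisons. The mice were 12 weeks old and carried loxP-flanked Dnmt3a alleles without Cre (Dnmt3a fl/fl, 4 mice) or with Villin-Cre, which deletes the flanked exons in intestinal epithelium (Dnmt3a ΔIEC, 4 mice). Their EpCAM-positive colon epithelial cells were sequenced. The labels state no interferon treatment.

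Interferons reach the cell by receptor pairs. Type I interferons bind IFNAR1 with IFNAR2, and interferon gamma binds IFNGR1 with IFNGR2. The receptors hold JAK kinases that phosphorylate STAT proteins: STAT2 and IRF9 act in the complex that binds interferon-stimulated response elements, while STAT pairs bind gamma-activated sites, one of which lies upstream of IRF1. In intestinal epithelium this pathway drives antiviral genes and antigen presentation.

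Reads counted on genes ranged from 22104408 to 42161299 in the 15 Caco-2 libraries and from 16943626 to 24921248 in the 8 mouse libraries. Levels below are CPM, counts scaled to normalised library sizes. Changes are log2 fold changes from quasi-likelihood tests in edgeR, adjusted by Benjamini-Hochberg across every gene tested, and an adjusted p under 0.05 counted as a change. The Caco-2 libraries are not stated to come from separate cultures, so their p-values measure the spread between libraries, which may be technical. DNMT3A itself had a level of 64.6 ± 2.27 CPM in WT libraries (SD, n = 4), 20.7 ± 1.22 in ΔDNMT3A (SD, n = 4), 38.02 ± 1.23 in DNMT3A1 (SD, n = 3) and 21.9 ± 1.40 in the libraries labelled DNMT3A2 (SD, n = 4), where it did not differ from ΔDNMT3A by the test (log2 fold change 0.07, adjusted p = 0.272). The RNA counts thus did not show the reintroduced short isoform, and those libraries are named by their label throughout. The paper reports that immunoblots detected both isoforms after re-expression, and that staining placed both in the nucleus. Protein was not measured here. All 8 epithelial markers listed reached 1 CPM on average in WT, ΔDNMT3A and DNMT3A1 and 7 of 8 did in the libraries labelled DNMT3A2. They summed to 9738 to 9999 CPM in WT, 12233.5 to 12894 in ΔDNMT3A, 10227 to 10439 in DNMT3A1 and 8567 to 8828 in the libraries labelled DNMT3A2. In ΔDNMT3A against WT, 5 of the 8 were higher and 1 lower, beside 31.2% and 31.0% of all genes tested. KRT20 had the largest of these changes (log2 fold change 3.95, adjusted p = 8.8e-19 by edgeR). The 4 pan-leukocyte markers summed to 264 to 269.8 CPM in WT, 329 to 339.96 in ΔDNMT3A, 203 to 215 in DNMT3A1 and 300.4 to 319.6 in the libraries labelled DNMT3A2. Of these, LCP1 was higher in ΔDNMT3A than in WT (log2 fold change 0.32, adjusted p = 5.66e-11 by edgeR), and PTPRC was at 0 counts in all lines but DNMT3A1. The summed level of 7 macrophage and dendritic cell markers was 5.42 to 6.12 CPM in WT, 18.4 to 21.5 in ΔDNMT3A, 14.1 to 14.8 in DNMT3A1 and 11.6 to 14.0 in the libraries labelled DNMT3A2, with C1QA and C1QB at 0 in all of them. In ΔDNMT3A against WT, 2 of the 7 were tested and 2 were higher. These were CSF1R (log2 fold change 1.85, adjusted p = 2.21e-16) and ITGAM (1.06, adjusted p = 2.97e-05) by edgeR. Of 2 T and NK cell markers tested there, 1 was higher and 0 lower, and of 4 stromal and endothelial markers 0 were higher and 3 lower. No B and plasma cell marker passed the filter on low counts. The part of these markers in the values below was not tested.

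Of the 9 genes, 8 had entries in the RefSeq promoter table (GRCh38.p14), with windows of 250 bases before and 50 after each listed start. Each window was searched on both strands for GAAANNGAAA, the core of the interferon-stimulated response element, and for TTCNNNGAA, the core of a gamma-activated site. The first was in none of the members' windows and in 3.57% of all 35116 windows. The second occurred once in the IRF1 window and once in the IRF9 window, beside 7.66% of all windows. The IRF1 window (chr5:132490724-132491023, minus strand) and the IRF9 window (chr14:24161015-24161314, plus strand) are shown 5′ to 3′ with this match in capitals, since these are the members with a letter match to a STAT motif. The match began 124 bases before the listed start of IRF1 and 63 bases before that of IRF9, and it overlapped no match to the other motif.
IRF1: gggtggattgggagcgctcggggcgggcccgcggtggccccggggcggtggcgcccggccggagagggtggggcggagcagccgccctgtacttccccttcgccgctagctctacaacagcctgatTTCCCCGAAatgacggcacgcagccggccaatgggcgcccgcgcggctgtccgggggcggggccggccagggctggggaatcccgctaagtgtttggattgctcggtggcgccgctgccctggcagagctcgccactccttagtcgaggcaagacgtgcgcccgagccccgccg
IRF9: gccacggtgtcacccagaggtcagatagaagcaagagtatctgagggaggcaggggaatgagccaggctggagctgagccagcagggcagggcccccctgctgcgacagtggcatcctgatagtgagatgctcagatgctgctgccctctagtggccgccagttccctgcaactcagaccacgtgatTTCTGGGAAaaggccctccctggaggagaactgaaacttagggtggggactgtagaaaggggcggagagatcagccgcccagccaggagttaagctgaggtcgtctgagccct
IFNGR1 is shown for its CG dinucleotides, the sites that DNA methyltransferases act on. Its transcript changed in all 3 comparisons with ΔDNMT3A, as did that of IRF1. The first of the 2 listed IFNGR1 windows, chr6:137219147-137219446 (minus strand), held 29 CG dinucleotides, printed in capitals, beside a median of 14 over all windows. Of all windows, 77.6% held at most 29, and the second IFNGR1 window held 25.
IFNGR1: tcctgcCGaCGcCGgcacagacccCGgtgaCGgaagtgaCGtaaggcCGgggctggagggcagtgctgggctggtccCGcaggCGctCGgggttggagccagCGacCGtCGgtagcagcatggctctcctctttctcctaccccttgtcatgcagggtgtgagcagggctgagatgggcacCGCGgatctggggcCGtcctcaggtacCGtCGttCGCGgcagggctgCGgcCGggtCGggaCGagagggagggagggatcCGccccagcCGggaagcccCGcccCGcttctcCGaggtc
IRF1 had 36 CG dinucleotides in its window and IRF9 had 7. The 4 JAK2 windows held from 11 to 39. IFNGR2 and STAT2, which were not called in ΔDNMT3A against WT, had 44 and 25. The JAK1 windows held from 9 to 43, and the IFNAR1 windows 19 and 30. DNA methylation was not analysed here. The paper names IFNGR1 among its examples of genes whose expression and nearby methylation ran in opposite directions in the Caco-2 lines.

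In ΔDNMT3A against WT, 4 of the 9 genes were higher (IFNGR1, JAK1, JAK2 and IRF1) and 3 were lower (IFNAR1, IFNAR2 and IRF9), where 31.2% of the 16654 genes tested were higher and 31.0% were lower. In DNMT3A1 against ΔDNMT3A, 2 were higher (JAK1 and STAT2) and 4 lower (IFNGR1, IFNGR2, IFNAR2 and IRF1), beside 30.4% higher and 30.3% lower of all genes. In the libraries labelled DNMT3A2 against ΔDNMT3A, 0 were higher and 7 lower, beside 33.8% and 34.1%. The edgeR test left IFNAR2 and JAK1 uncalled there, and DESeq2 and an unadjusted p under 0.05 also gave 7 calls in all. DESeq2 called 31.5% of the 33664 genes in its fit. Low counts were not filtered before that fit, and genes that DESeq2 left without an adjusted p count there as not called. Its shares are therefore not on the same footing as those of edgeR. DNMT3A1 against WT gave 3 higher and 5 lower (32.6% and 32.7% of all genes). The DNMT3A2-labelled libraries against WT gave 1 higher and 7 lower (34.3% and 34.4%), and against DNMT3A1 they gave 1 higher and 6 lower (33.9% and 34.5%). The median log2 fold change over the 9 genes was -0.02 in ΔDNMT3A against WT, -0.18 in DNMT3A1 against ΔDNMT3A and -0.49 in the DNMT3A2-labelled libraries against ΔDNMT3A, while the medians over all genes tested were -0.005, 0.01 and 0.004. These comparisons share libraries with each other, so their counts are not independent.

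**Figure D1:**
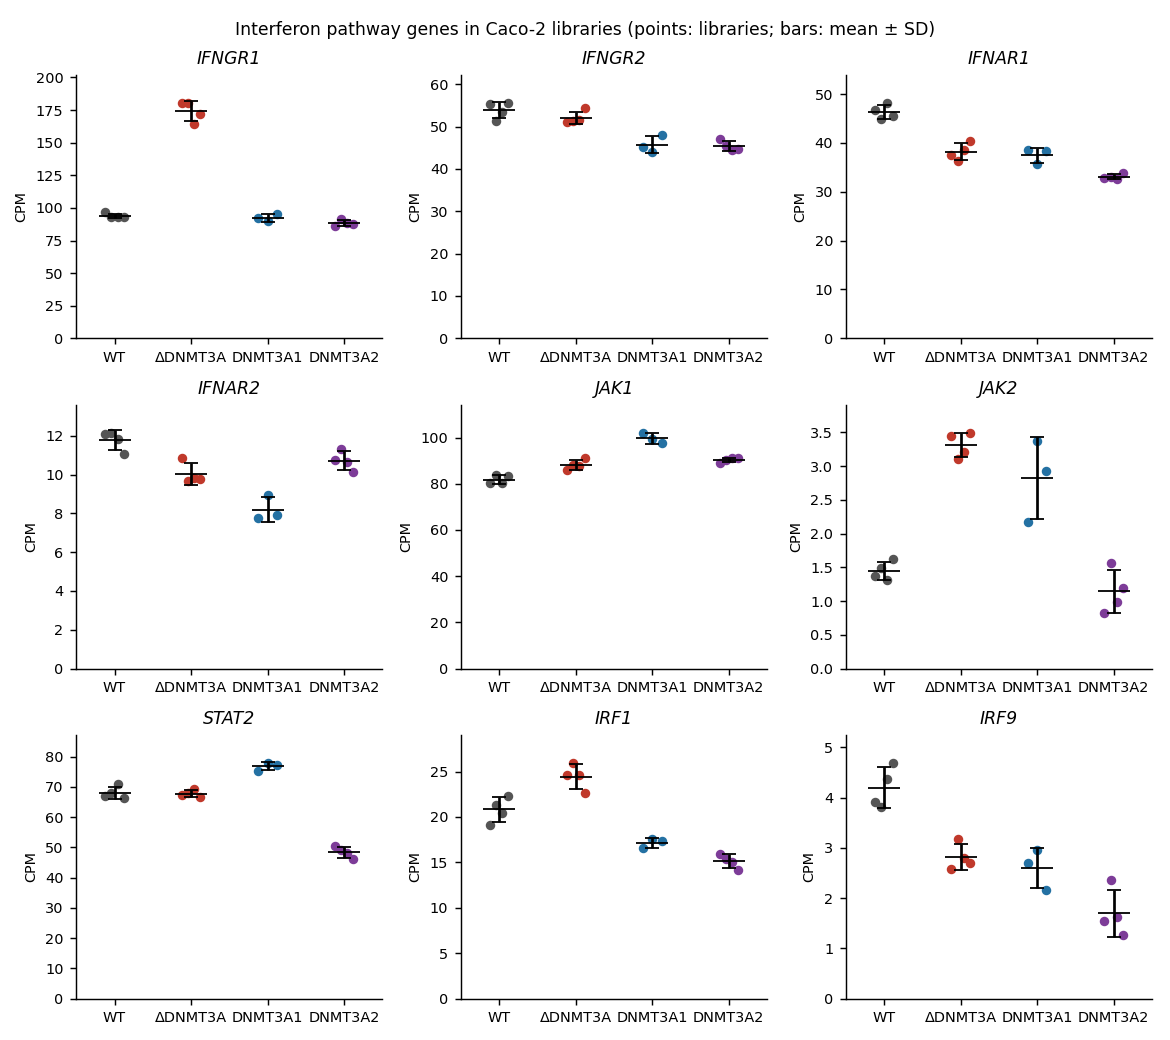
Level of each of the 9 genes in CPM (y axis, from 0) in the 15 Caco-2 libraries by group (x axis), with points for libraries and bars for the mean ± SD. IFNGR1 stood above 164 CPM in all 4 ΔDNMT3A libraries and at no more than 96.6 CPM in all other libraries, JAK2 was highest in ΔDNMT3A and DNMT3A1, and STAT2 was lowest in the libraries labelled DNMT3A2.

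IFNGR1, the ligand-binding chain of the interferon gamma receptor (ENSG00000027697, GRCh38 chromosome 6, 137197484 to 137219449, minus strand), was raised 1.85-fold in ΔDNMT3A and was near the WT level in both isoform lines. The WT libraries held 96.6, 93.2, 92.7 and 92.7 CPM. The ΔDNMT3A libraries held 180.5, 180.6, 164.4 and 171.7 CPM. Every ΔDNMT3A library was above every WT library. The log2 fold change was 0.88 (SE 0.032, adjusted p = 3.38e-17 by edgeR), and 5.58% of the genes tested rose by at least as much. With the lanes of the flow cell taken apart, it was 0.92 in lane L005 and 0.84 in lane L006. The DNMT3A1 libraries held 92.1, 89.8 and 95.6 CPM and the DNMT3A2-labelled libraries 86.1, 91.2, 88.4 and 87.8 CPM, so neither line overlapped ΔDNMT3A. Against ΔDNMT3A the log2 fold changes were -0.91 (SE 0.037, adjusted p = 5.86e-14) and -0.99 (SE 0.032, adjusted p = 4.1e-18) by edgeR. DNMT3A1 did not pass the test against WT (log2 fold change -0.02, 95% interval -0.09 to 0.04), whereas the DNMT3A2-labelled libraries lay below WT by a small margin (-0.10, SE 0.028, adjusted p = 0.00161).

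The signal-transducing partner IFNGR2 (ENSG00000159128, chromosome 21, 33402896 to 33479348, plus strand) did not follow IFNGR1. It held 51.3 to 55.6 CPM in WT and 51.02 to 54.3 CPM in ΔDNMT3A, overlapping ranges, with a log2 fold change of -0.07 (95% interval -0.14 to 0.005, adjusted p = 0.117 by edgeR). Both isoform lines were lower, at 44.1 to 47.96 CPM in DNMT3A1 and 44.4 to 47.0 CPM in the libraries labelled DNMT3A2. Against ΔDNMT3A these were log2 fold changes of -0.18 (SE 0.045, adjusted p = 0.00167) and -0.20 (SE 0.035, adjusted p = 2e-05) by edgeR. Without WT replicate 2, IFNGR2 passed the test in ΔDNMT3A against WT (-0.09, adjusted p = 0.0399).

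Both chains of the type I receptor were lower in ΔDNMT3A than in WT and were not higher in DNMT3A1 than in ΔDNMT3A. IFNAR1 (ENSG00000142166, chromosome 21, 33324477 to 33359862, plus strand) held 46.8, 44.9, 48.2 and 45.4 CPM in WT. In ΔDNMT3A it held 37.4, 36.3, 38.5 and 40.4 CPM. None of the ΔDNMT3A libraries came up to the lowest WT library, and the log2 fold change was -0.29 (SE 0.039, adjusted p = 6.02e-07 by edgeR; -0.33 in lane L005 and -0.26 in lane L006). DNMT3A1 held 35.7 to 38.5 CPM, which overlapped ΔDNMT3A (-0.02, 95% interval -0.12 to 0.08). The libraries labelled DNMT3A2 were lower again, at 32.5 to 33.8 CPM, with log2 fold changes of -0.21 against ΔDNMT3A (SE 0.041, adjusted p = 9.17e-05) and -0.50 against WT (SE 0.038, adjusted p = 6.66e-13) by edgeR.

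IFNAR2 (ENSG00000159110, chromosome 21, 33229901 to 33265675, plus strand) ordered the isoform lines the other way. WT libraries held 12.1, 12.1, 11.8 and 11.04 CPM and ΔDNMT3A libraries 10.9, 9.7, 9.8 and 9.8 CPM. The log2 fold change was -0.23 (SE 0.066, adjusted p = 0.00343 by edgeR), with no overlap between the groups. DNMT3A1 was the lowest line at 7.8, 8.9 and 7.9 CPM (-0.30 against ΔDNMT3A, SE 0.077, adjusted p = 0.00207). The DNMT3A2-labelled libraries held 10.7, 11.3, 10.7 and 10.1 CPM and were above DNMT3A1 by 0.38 on the log2 scale (SE 0.076, adjusted p = 8.37e-05 by edgeR). Their difference from WT (-0.15, adjusted p = 0.0316) did not pass the threshold in DESeq2 (adjusted p = 0.12). In the IFNAR2 gene model, 9.4% of the exonic bases are shared with the readthrough gene IFNAR2-IL10RB, where reads are not assigned to either gene.

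IFNAR2, IFNAR1 and IFNGR2 lie in a row on chromosome 21 with IL10RB, the shared receptor chain of the interleukin-10 family and of interferon lambda, between IFNAR2 and IFNAR1. IL10RB was slightly higher in ΔDNMT3A than in WT (log2 fold change 0.15, SE 0.059, adjusted p = 0.0277 by edgeR), whereas its neighbours IFNAR2 and IFNAR1 were lower. It was lower than ΔDNMT3A in DNMT3A1 (-0.54, adjusted p = 2.3e-08) and in the DNMT3A2-labelled libraries (-1.10, adjusted p = 5.19e-14).

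JAK1, the kinase used by both receptor types (ENSG00000162434, chromosome 1, 64833229 to 64966504, minus strand), differed little between the lines. It held 80.2 to 83.6 CPM in WT and 85.9 to 91.2 CPM in ΔDNMT3A, without overlap, a log2 fold change of 0.10 (SE 0.030, adjusted p = 0.00715 by edgeR). In lane L005 alone this was 0.08 and did not pass (adjusted p = 0.0901), and in lane L006 it was 0.12. DNMT3A1 was the highest line at 97.6 to 102.0 CPM (0.17 against ΔDNMT3A, SE 0.033, adjusted p = 0.00014). The libraries labelled DNMT3A2 held 89.2 to 91.1 CPM and did not pass the test against ΔDNMT3A (0.03, 95% interval -0.03 to 0.09).

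JAK2, the kinase paired with IFNGR2 (ENSG00000096968, chromosome 9, 4984390 to 5128183, plus strand), had the largest fold change of the 9 genes in ΔDNMT3A against WT, at a low level of 21 to 144 reads per library. WT libraries held 1.37, 1.49, 1.31 and 1.62 CPM. ΔDNMT3A libraries held 3.44, 3.11, 3.21 and 3.49 CPM, above WT without overlap, a 2.26-fold difference (log2 fold change 1.18, SE 0.122, adjusted p = 9.58e-09 by edgeR). The value was 1.19 in lane L005 and 1.17 in lane L006, and 3.59% of the genes tested rose by at least as much. DNMT3A1 held 2.17, 3.37 and 2.93 CPM and overlapped ΔDNMT3A. Its log2 fold change against ΔDNMT3A was -0.24 (95% interval -0.51 to 0.04, adjusted p = 0.15), and it stayed above WT (0.95, SE 0.166, adjusted p = 1.8e-05 by edgeR). Without DNMT3A1 replicate 2, the highest of the line, the difference from ΔDNMT3A was -0.37 and passed the test (adjusted p = 0.0462). The libraries labelled DNMT3A2 held 0.83, 1.57, 0.99 and 1.20 CPM, all below every ΔDNMT3A and every DNMT3A1 library. Their log2 fold change was -1.55 against ΔDNMT3A (SE 0.155, adjusted p = 5.2e-09) and -1.31 against DNMT3A1 (SE 0.200, adjusted p = 2.35e-06) by edgeR. Against WT it was -0.37 and did not pass (adjusted p = 0.0854), but without DNMT3A2 replicate 2 it was -0.53 and passed (adjusted p = 0.0223).

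**Figure D2:**
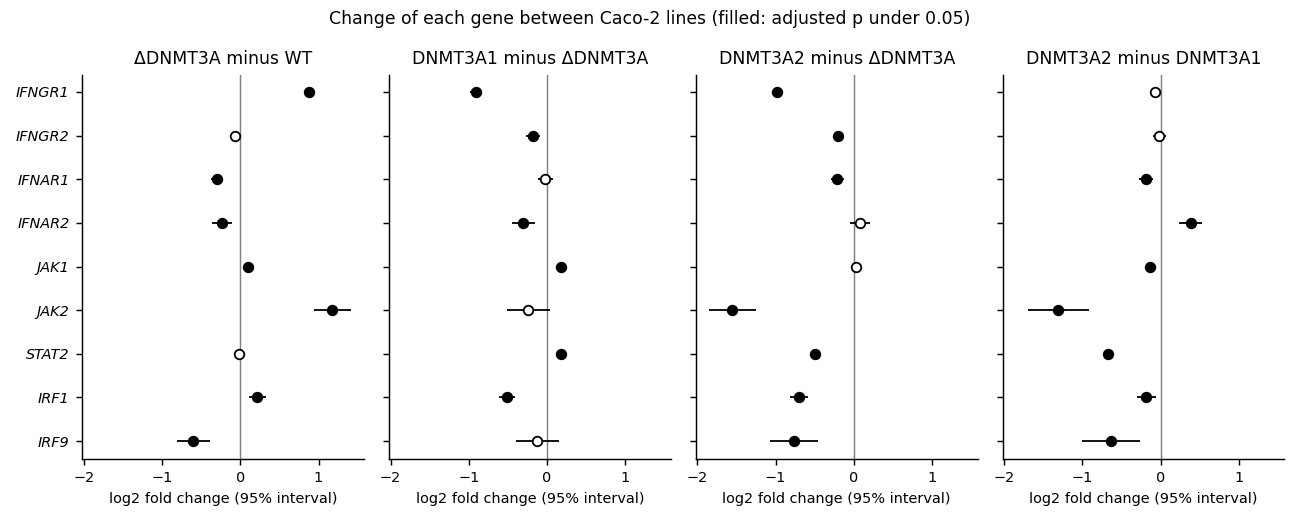
Log2 fold change (x axis) of each of the 9 genes (y axis) in 4 comparisons of Caco-2 lines, with lines for the 95% interval and filled points where the adjusted p was under 0.05. IFNGR1 moved by 0.88 in ΔDNMT3A and by -0.91 and -0.99 in the isoform lines, and JAK2 by -0.24 in DNMT3A1 and -1.55 in the libraries labelled DNMT3A2.

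STAT2 (ENSG00000170581, chromosome 12, 56341597 to 56360155, minus strand), the transactivating partner of IRF9 in type I responses, separated the isoform lines and not ΔDNMT3A from WT. WT libraries held 67.0, 67.9, 71.0 and 66.5 CPM and ΔDNMT3A libraries 67.3, 67.8, 69.3 and 66.6 CPM. These ranges overlapped (log2 fold change -0.02, 95% interval -0.08 to 0.04, adjusted p = 0.647 by edgeR). DNMT3A1 was slightly higher at 75.4, 77.8 and 77.4 CPM (0.18 against ΔDNMT3A, SE 0.036, adjusted p = 0.000189). The libraries labelled DNMT3A2 were lower than every other library at 50.4, 49.1, 48.3 and 46.03 CPM. Their log2 fold change was -0.49 against ΔDNMT3A (SE 0.034, adjusted p = 6.13e-12) and -0.67 against DNMT3A1 (SE 0.038, adjusted p = 2.23e-14) by edgeR, with -0.62 in lane L005 and -0.72 in lane L006 for the latter.

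IRF1, the transcription factor that relays interferon gamma signals to antigen-presentation genes (ENSG00000125347, chromosome 5, 132481609 to 132490798, minus strand), was highest in ΔDNMT3A and fell below WT in both isoform lines. WT libraries held 19.1, 21.4, 20.5 and 22.4 CPM and ΔDNMT3A libraries 24.6, 25.9, 24.6 and 22.6 CPM. The groups met closely without overlapping, with a log2 fold change of 0.22 (SE 0.055, adjusted p = 0.00134 by edgeR). It was 0.31 in lane L005, but 0.12 and not past the threshold in lane L006 (adjusted p = 0.196). DNMT3A1 held 16.6, 17.5 and 17.4 CPM and the DNMT3A2-labelled libraries 15.9, 15.4, 15.1 and 14.2 CPM. The log2 fold changes against ΔDNMT3A were -0.51 (SE 0.054, adjusted p = 9.13e-08) and -0.70 (SE 0.057, adjusted p = 1.42e-10) by edgeR, and both lines lay below WT (-0.28, adjusted p = 0.0002 and -0.48, adjusted p = 1.28e-08). The isoform lines differed from each other by -0.19 (adjusted p = 0.00932), a call that DESeq2 did not make (adjusted p = 0.0731). The IRF1 promoter window is the one printed above with the gamma-activated site letters.

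IRF9 (ENSG00000213928, chromosome 14, 24161053 to 24166565, plus strand), which recruits STAT2 to response elements, was lower in every edited line. It was counted at 39 to 182 reads per library, and 48.4% of its exonic bases are shared with the overlapping gene ENSG00000259529 on the same strand, where reads are not assigned. WT libraries held 3.9, 3.8, 4.4 and 4.7 CPM and ΔDNMT3A libraries 2.6, 3.2, 2.8 and 2.7 CPM. No ΔDNMT3A library reached the lowest WT library (log2 fold change -0.60, SE 0.105, adjusted p = 2.78e-05 by edgeR; -0.45 in lane L005 and -0.74 in lane L006). DNMT3A1 held 2.7, 2.9 and 2.2 CPM and overlapped ΔDNMT3A (-0.12, 95% interval -0.40 to 0.16). The libraries labelled DNMT3A2 held 1.5, 2.4, 1.6 and 1.3 CPM, below ΔDNMT3A by -0.76 on the log2 scale (SE 0.158, adjusted p = 0.000169) and below WT by -1.36 (SE 0.143, adjusted p = 8.89e-10) by edgeR. Against WT the value was -1.02 in lane L005 and -1.67 in lane L006. Against DNMT3A1 their ranges overlapped, and the log2 fold change of -0.64 passed the test (SE 0.186, adjusted p = 0.00392) but not in lane L006 alone (-0.60, adjusted p = 0.0601), where DNMT3A1 had 1 library.

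Levels were also compared per length, as TPM, which divides the counts by the exonic length of each gene model. IFNGR1 was the most abundant of the 9 in WT (118 ± 3.37, SD, n = 4), followed by IFNGR2 (58.8 ± 1.90), JAK1 (41.8 ± 1.31), STAT2 (35.996 ± 0.898) and IFNAR1 (23.7 ± 0.563). IRF1 (8.62 ± 0.575) and IFNAR2 (8.25 ± 0.435) were not separated by their spread. IRF9 (3.57 ± 0.308) and JAK2 (0.758 ± 0.0743) were the scarcest. The TPM values of IRF9 and IFNAR2 are lowered, since 48.4% and 9.4% of their exonic bases take no assigned reads. In ΔDNMT3A, IFNGR1 rose to 215 ± 15.96 TPM (SD, n = 4), while JAK2 reached 1.70 ± 0.133 TPM and stayed the scarcest of the 9.

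The other genes of the pathway were counted from lists written by hand. Of 9 interferon ligand genes, 0 passed the filter on low counts in any Caco-2 comparison, and no ligand had more than 4 reads in any Caco-2 library. Of 4 other class II cytokine receptor genes tested in ΔDNMT3A against WT, 3 were higher and 0 lower, beside 31.2% and 31.0% of all genes (median log2 fold change 0.16, all genes -0.005). IL20RB, a chain of receptors of the IL-20 family, went from 5.74 ± 0.485 CPM in WT (SD, n = 4) to 15.01 ± 1.55 in ΔDNMT3A (SD, n = 4; log2 fold change 1.37, adjusted p = 4.79e-13 by edgeR) and was at 16.2 CPM in DNMT3A1 and 17.8 CPM in the libraries labelled DNMT3A2. IFNLR1, the specific chain of the interferon lambda receptor, went from 12.6 ± 0.731 to 14.4 ± 0.388 CPM (0.18, adjusted p = 0.0147).

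Among 6 other JAK and STAT genes tested in ΔDNMT3A against WT, 4 were higher and 0 lower (median log2 fold change 0.54), where 31.2% and 31.0% of all genes tested were called. STAT5B and STAT3, which carry growth factor and interleukin signals, rose by 0.58 (adjusted p = 5.47e-12) and 0.49 (adjusted p = 1.82e-11) by edgeR. In the libraries labelled DNMT3A2, 5 of the 6 were lower than ΔDNMT3A and 0 higher (median -0.45), beside 34.1% and 33.8% of all genes. In DNMT3A1, 3 were higher and 1 lower (median 0.03), beside 30.4% and 30.3% of all genes, and STAT3 was the gene that fell (-0.12, adjusted p = 0.017).

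Of 6 other IRF genes tested, 3 were higher and 3 lower in ΔDNMT3A against WT (median -0.05), beside 31.2% and 31.0% of all genes. IRF8, better known from myeloid and B cells, was at 71.0 ± 0.882 CPM in WT and 98.5 ± 2.20 in ΔDNMT3A (SD, n = 4 each; 0.46, adjusted p = 1.45e-12), and IRF5 rose at a low level (0.80, adjusted p = 0.000741). IRF2, an antagonist of IRF1 at shared sites, fell from 8.16 ± 0.724 to 4.77 ± 0.376 CPM (-0.78, adjusted p = 2.18e-08), and IRF7, the amplifier of type I responses, from 21.3 ± 0.289 to 14.0 ± 0.549 CPM (-0.62, adjusted p = 2.77e-10). IRF7 was lowest in the libraries labelled DNMT3A2, at 8.67 CPM. Of 13 inhibitors of JAK-STAT signalling, 7 were higher and 2 lower in ΔDNMT3A (median 0.18), beside the same shares of all genes. SOCS2 (0.58, adjusted p = 2.55e-10) and PIAS1 (0.31, adjusted p = 1.22e-07) rose the most among those called, and CISH (-0.43, adjusted p = 0.0149) and PIAS2 (-0.30, adjusted p = 2.89e-05) fell.

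Genes known as targets of interferon gamma were mostly higher in ΔDNMT3A, and those of type I interferon were split. Of 14 interferon gamma targets tested, 11 were higher and 0 lower in ΔDNMT3A against WT, with a median log2 fold change of 0.94, where 31.2% of all genes tested were higher and 31.0% lower. NLRC5, the activator of MHC class I genes, went from 0.602 ± 0.132 CPM in WT to 2.00 ± 0.103 in ΔDNMT3A (SD, n = 4 each; 1.72, adjusted p = 8.8e-09 by edgeR), and GBP3, a guanylate-binding protein, from 0.606 ± 0.209 to 1.49 ± 0.211 (1.28, adjusted p = 2.23e-05). Of 23 type I interferon targets tested, 9 were higher and 8 lower (median 0.03), which is near those shares. IFI27 rose from 3.83 ± 0.446 to 16.3 ± 1.10 CPM (2.08, adjusted p = 1.38e-16) and IFIT2 from 0.659 ± 0.152 to 1.84 ± 0.218 (1.44, adjusted p = 3.28e-07). The antiviral GTPase gene MX1 fell from 9.77 ± 0.866 to 1.84 ± 0.054 CPM (-2.43, adjusted p = 1.57e-16), and ISG15, a ubiquitin-like modifier, from 22.1 ± 1.10 to 14.1 ± 0.977 (-0.66, adjusted p = 7.16e-10).

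Most tested genes of both target lists were lower in the isoform lines than in ΔDNMT3A. Against ΔDNMT3A, DNMT3A1 had 17 of 23 type I targets lower and 3 higher (median -1.07), and 11 of 13 interferon gamma targets lower and 1 higher (median -1.51), beside 30.3% lower and 30.4% higher of all genes. The libraries labelled DNMT3A2 had 20 of 23 type I targets lower and 1 higher (median -2.04). In these libraries 12 of 13 interferon gamma targets were lower and 1 higher (median -2.50), beside 34.1% lower and 33.8% higher of all genes. Between the isoform lines, 20 type I and 10 interferon gamma targets passed the filter on low counts. Genes passing only through their ΔDNMT3A counts could hardly be higher in the isoform lines. The counts and medians against ΔDNMT3A thus lean toward lower values, and the genes tested against WT are not the same sets. Against WT, DNMT3A1 had 17 of 24 type I targets lower and 4 higher (median -1.04), and the DNMT3A2-labelled libraries had 21 of 23 lower and 2 higher (median -1.84). Of the interferon gamma targets, 4 of 11 were lower and 2 higher than WT in DNMT3A1 (median -0.41), and 6 of 10 were lower and 1 higher in the DNMT3A2-labelled libraries (median -0.70). Of all genes, 32.7% were lower and 32.6% higher in DNMT3A1 against WT, and 34.4% lower and 34.3% higher in the DNMT3A2-labelled libraries. MX1 was at 0.876 CPM in DNMT3A1 and 0.209 CPM in the libraries labelled DNMT3A2, IFI27 at 0.749 and 0.406 CPM, ISG15 at 5.34 and 8.19 CPM, and NLRC5 at 0.438 and 0.404 CPM. MX1 and ISG15 were thus lower in all 3 edited lines than in WT, whereas NLRC5 did not pass the test against WT in DNMT3A1 (-0.47, adjusted p = 0.17) or in the DNMT3A2-labelled libraries (-0.58, adjusted p = 0.0778).

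**Figure D3:**
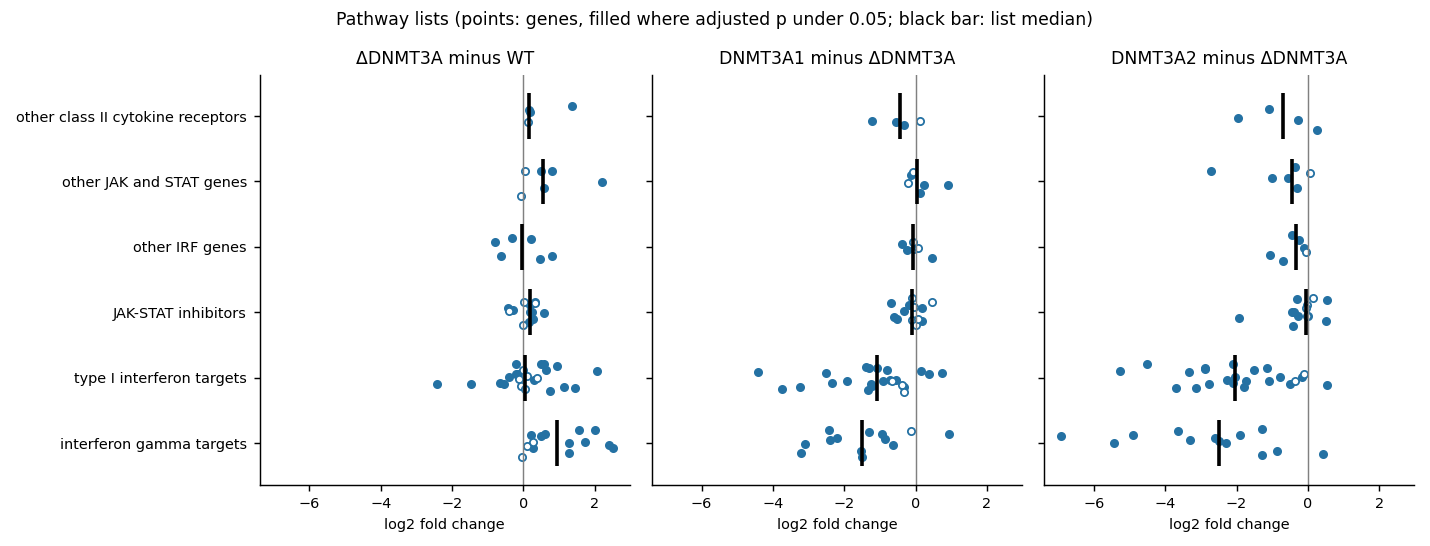
Log2 fold change (x axis) of the tested genes in 6 lists of the interferon and JAK-STAT pathway (y axis) in 3 comparisons of Caco-2 lines, with points for genes, filled where the adjusted p was under 0.05, and black bars for list medians. Interferon gamma targets had a median of 0.94 in ΔDNMT3A against WT and of -1.51 and -2.50 in the isoform lines against ΔDNMT3A. Some of these genes passed the filter on low counts only through ΔDNMT3A, which moves these medians away from 0.

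The chromosomal neighbours of 4 of the genes were looked at in ΔDNMT3A against WT, 25 tested genes to each side where the chromosome allowed. The IFNGR1 value of 0.88 was above 44 of its 50 neighbours, whose median was 0.13. The next 5 tested genes toward higher coordinates were also higher in ΔDNMT3A, a stretch noticed after the values were seen: LINC03004 (0.81, adjusted p = 0.00564), WAKMAR2 (0.84, adjusted p = 3.45e-07), TNFAIP3 (0.94, adjusted p = 3.34e-16), PERP (1.74, adjusted p = 1.57e-24) and ARFGEF3 (1.34, adjusted p = 9.12e-09) by edgeR. TNFAIP3 encodes the ubiquitin-editing inhibitor of NF-κB signalling known as A20. The JAK2 value was above 42 of its 45 neighbours (median -0.05), and that of IRF9 was above 5 of 50 (median 0.07). Of the genes next to IRF9, REC8 had a log2 fold change of -0.64 (adjusted p = 0.00155) and ENSG00000259529, which overlaps IRF9, one of -0.11 (adjusted p = 0.646). IFNAR1 was above 7 of its 50 neighbours, whose median was -0.04.

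The genes whose level was most like that of JAK2, the member with the largest change, over the 15 Caco-2 libraries were SFI1 (Pearson's r = 0.97), TMC3-AS1 (r = 0.96) and PCSK5 (r = 0.96) on log2 CPM. The libraries fall into 4 lines, so these values describe a shared order of the lines. SFI1, a centrosome gene, had mean levels of 27.0 CPM for WT, 57.8 for ΔDNMT3A, 50.1 for DNMT3A1 and 21.6 for the libraries labelled DNMT3A2.

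In mouse colon epithelium the same 9 genes did not differ between Dnmt3a ΔIEC and Dnmt3a fl/fl beyond the spread between mice. Dnmt3a fell from 93.9 ± 7.70 CPM (SD, n = 4) to 46.1 ± 3.30 CPM (SD, n = 4; log2 fold change -1.03, SE 0.091, adjusted p = 0.000763 by edgeR). Of the 9 genes, 0 were higher and 0 lower by edgeR, beside 0.602% higher and 0.0889% lower of the 14626 genes tested. At an unadjusted p under 0.05 the count was also 0, and DESeq2 called 0, beside 1.56% of the 22431 genes in its fit. Genes without an adjusted p again count there as not called. In bulk cells, fewer cells that express a gene and less RNA per cell cannot be told apart. The mouse reads were counted without regard to strand, so reads from antisense transcripts would be included.

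**Figure D4:**
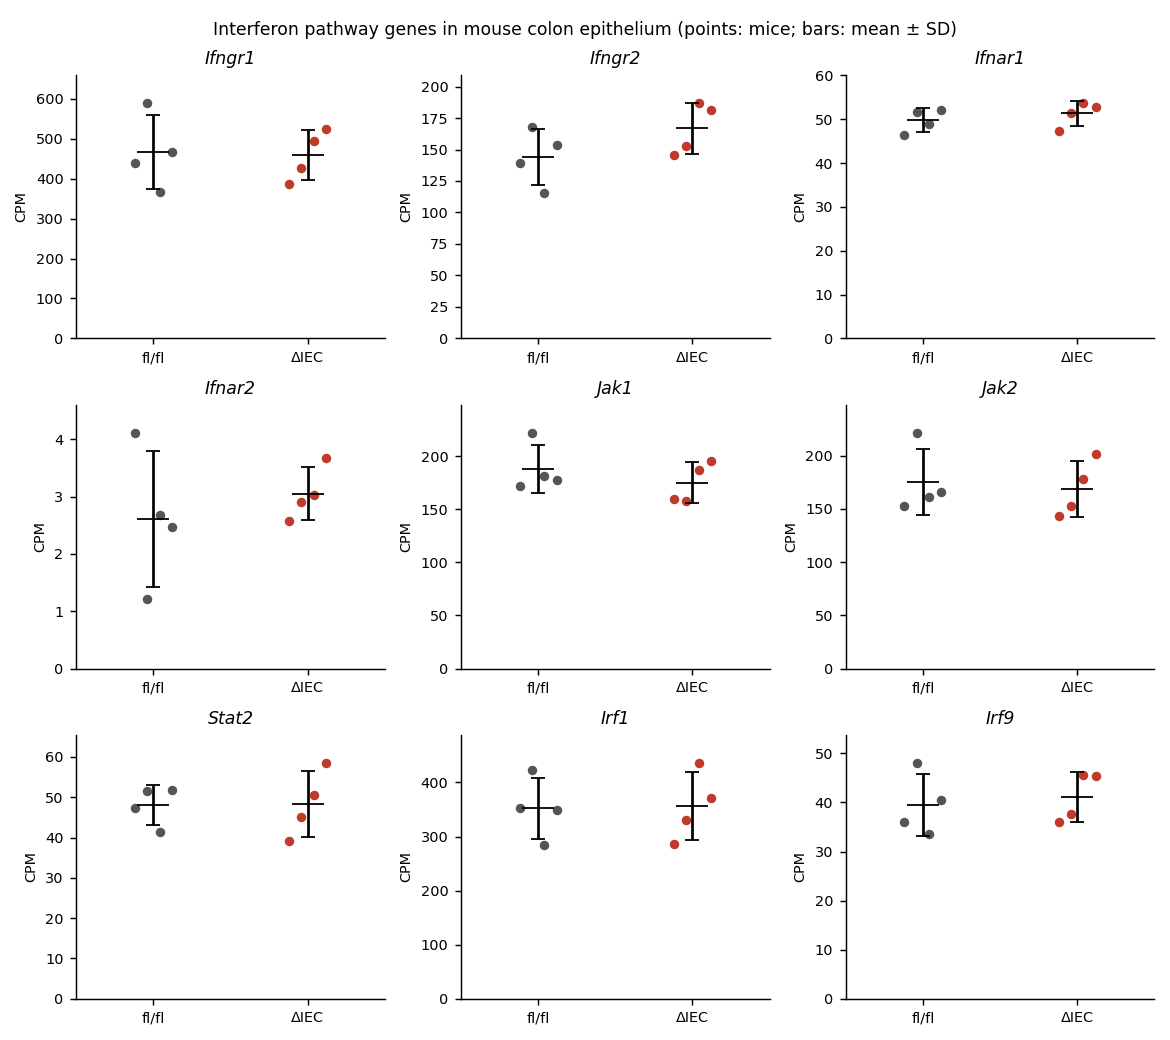
Level of each of the 9 genes in CPM (y axis, from 0) in colon epithelium of 4 mice per group, Dnmt3a fl/fl at the left and Dnmt3a ΔIEC at the right (x axis), with points for mice and bars for the mean ± SD. The groups overlapped for all 9 genes.

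Ifngr1 held 439.8, 590.0, 366.9 and 466.8 CPM in Dnmt3a fl/fl mice and 387.7, 426.4, 494.8 and 524.9 CPM in Dnmt3a ΔIEC mice. The ranges overlapped, and the log2 fold change was -0.02 with a 95% interval from -0.33 to 0.28 (adjusted p = 0.965 by edgeR). Ifngr2 had the lowest adjusted p of the set, at 115.2 to 168.0 CPM in Dnmt3a fl/fl and 145.6 to 187.1 CPM in Dnmt3a ΔIEC (0.21, 95% interval -0.05 to 0.47, adjusted p = 0.499). Ifnar1 was the most even of the receptors, at 46.4 to 52.1 and 47.4 to 53.7 CPM (0.04, 95% interval -0.11 to 0.20). Ifnar2 was scarce, at 1.21 to 4.11 and 2.58 to 3.68 CPM, from 23 to 89 reads per library, and its interval of -0.38 to 0.81 around 0.21 was the widest of the 9. Of its exonic bases, 9.5% are shared with the gene Gm21970.

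Jak1 held 171.9 to 221.9 CPM in Dnmt3a fl/fl and 158.1 to 195.7 CPM in Dnmt3a ΔIEC (-0.10, 95% interval -0.33 to 0.12). Jak2, scarce in Caco-2 cells, was at 152.3 to 221.2 and 143.7 to 201.8 CPM (-0.05, 95% interval -0.33 to 0.23). Stat2 (0.007, 95% interval -0.25 to 0.26), Irf1 (0.02, 95% interval -0.29 to 0.32) and Irf9 (0.06, 95% interval -0.20 to 0.31) were centred near 0. Irf1 was abundant, at 284.8 to 422.3 and 286.6 to 435.6 CPM. Per length, Ifngr1 led in Dnmt3a fl/fl mice at 541 ± 76.4 TPM (SD, n = 4), then Irf1 at 293 ± 29.9, Ifngr2 at 144 ± 14.0 and Jak2 at 115 ± 15.9 TPM.

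Of 65 other pathway genes tested in mice, 1 passed the threshold, beside 0.602% higher and 0.0889% lower of all genes tested. Ptpn6, which encodes a phosphatase that dampens JAK signals, rose from 18.9 ± 2.77 to 29.0 ± 2.09 CPM (SD, n = 4 each; log2 fold change 0.61, SE 0.119, adjusted p = 0.0499 by edgeR). It is best known from blood cells. The call held in 3 of 14 alternatives (adjusted p from 0.00104 by DESeq2 to 0.203), and it was lost when any single mouse other than Dnmt3a fl/fl replicate 4 was left out. The medians were 0.21 over 14 interferon gamma targets and -0.02 over 21 type I targets, with 0 called in either list by edgeR, beside a median of -0.004 over all genes tested. Of the 9 interferon ligand genes listed, 4 were matched by symbol in mice. Among these Ifnk was the one that passed the filter, with a mean of 1.63 CPM in both groups. IFNA1, IFNA2, IFNB1, IFNE and IFNL1 had no match and were not examined there. The 4 pan-leukocyte markers summed to 6.74 to 10.2 CPM in Dnmt3a fl/fl and 8.71 to 9.88 CPM in Dnmt3a ΔIEC. Among them Ptprc had a log2 fold change of 1.13 (adjusted p = 0.0642 by edgeR), and the part of leukocyte RNA in the Ptpn6 value was not tested. The summed level of 8 T and NK cell markers was 0.683 to 2.27 CPM in Dnmt3a fl/fl and 1.65 to 3.22 CPM in Dnmt3a ΔIEC, and that of 9 macrophage and dendritic cell markers 4.78 to 8.98 and 4.94 to 6.21 CPM, while the 8 epithelial markers summed to 11010 to 13194 and 11667 to 15710 CPM.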

How the data were processed

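RNA-seq counts of 15 Caco-2 and 8 mouse libraries were used. The authors trimmed reads with Trim Galore 0.4.4, aligned them with STAR 2.5.2b to GRCh38 or GRCm38, and deposited raw counts per gene from featureCounts, made on the reverse strand for the human libraries (featureCounts 1.5.2) and without strand for the mouse libraries. Replicate 3 of DNMT3A1 was not analysed here. Conditions and replicate numbers came from the labels. Symbols were found for 41445 of 58051 human identifiers (71.4%).

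Each comparison was fitted on its 2 groups with edgeR 4.0.16 in R 4.3.3 (filterByExpr, TMM, quasi-likelihood test, Benjamini-Hochberg adjustment over all genes tested, threshold 0.05). SE is the model's error of a log2 fold change, and 95% intervals use the normal approximation. DESeq2 1.42.0, other size factors, filters, a length trend, lane and replicate blocks, 1 fit of all 4 lines and leaving out each library were alternatives. Levels are CPM on TMM sizes, and TPM used the exonic length of each gene model. Reads carried no molecular identifiers, so copies made by amplification could not be removed, and depth alone does not give the precision. Between replicate libraries the chi-square statistic per degree of freedom was 1.83 to 5.10 in Caco-2 and 9.98 to 80.9 in mice, so no 2 libraries were counted as 1. Same-numbered Caco-2 libraries of different lines did not deviate together (correlations from -0.11 to 0.09 over 21 pairs), so the numbers were not used as pairs.

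The test was checked on simulated counts, drawn with gene-wise dispersions and, after those results were seen, also with trended ones. The share of false calls was above the threshold with gene-wise dispersions when modelled on the Caco-2 libraries, and nearer to it with trended ones. Modelled on the mouse libraries, small changes were seldom recovered with either, and with trended dispersions the share of false calls among them was above the threshold. The genes and lists were chosen with earlier results of these data known. One gene of the lists is not reported here and was left out of the list counts and medians. Named genes of each list are the 2 highest and 2 lowest called log2 fold changes at a mean of at least 1 CPM in the ΔDNMT3A and Dnmt3a ΔIEC comparisons, and the 3 genes most like the member with the largest change. Python 3.11.15 with numpy 2.4.6 and pandas 2.3.3 made the tables.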

Additional observations from a re-analysis of the deposited data

Results flagged for a closer look

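Among 45 groups of 4 libraries looked at, 3 had a library far from the other 3, where chance gives about 1 in 20 groups. IFNGR1 in WT replicate 1 was at 96.6 CPM, beside 92.7 to 93.2 CPM in the other WT libraries. IFNGR2 in ΔDNMT3A replicate 4 was at 54.3 CPM, beside 51.02 to 51.4 CPM, and IFNAR2 in ΔDNMT3A replicate 1 was at 10.9 CPM, beside 9.68 to 9.84 CPM.

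The change from ΔDNMT3A differed between the lines given the short and the long isoform for 7 of the 9 genes, by edgeR's direct test of the libraries labelled DNMT3A2 against DNMT3A1, where 33.9% of all genes tested were higher and 34.5% lower, so 7 of 9 is near the share over all genes. The differences on the log2 scale were -1.31 for JAK2, -0.67 for STAT2, -0.64 for IRF9, -0.19 for IFNAR1, -0.19 for IRF1 and -0.14 for JAK1, and 0.38 for IFNAR2, which was higher in the libraries labelled DNMT3A2. The 2 lines were grown separately from diluted cells, so clone and isoform cannot be told apart.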

How the results depend on the processing

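Over 1125 alternative fits of 63 gene values, 1074 kept their direction and their side of the threshold, 17 lost the call, 8 gained it and 26 changed sign, none of these with a call. Beside the adjusted p, a log2 fold change of at least 1 left 1 of the 9 genes called in ΔDNMT3A against WT (JAK2), 0 and 1 in DNMT3A1 and in the DNMT3A2-labelled libraries against ΔDNMT3A, 0 and 1 against WT, and 1 between the isoform lines, where 8.32% to 13.1% of all genes tested were called. In lane L006 alone, with 1 DNMT3A1 library assumed to vary like the other group, DNMT3A1 against ΔDNMT3A had 3 calls, beside 40.2% of all genes. The count of calls over leave-one-out fits ranged from 7 to 8 in ΔDNMT3A against WT, 6 to 7 in DNMT3A1 against ΔDNMT3A, 7 to 9 in the DNMT3A2-labelled libraries against WT and 7 to 8 between the isoform lines, beside 58.8% to 60.3%, 54.5% to 59.6%, 65.2% to 66.9% and 64.8% to 67.3% of all genes. With the replicate block the counts were 7, 6, 7, 8, 8 and 7 in the order given in the report, each equal to that without it. In the same order, this block gave calls for 63.5%, 59.6%, 67.6%, 63.3%, 68.1% and 67.8% of all genes tested. For DNMT3A1 this paired fit drops replicate 3 of the other group. Labels give no shared numbers for mice.

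Signs turned for uncalled values, which lay between -0.12 (IRF9 in DNMT3A1 against ΔDNMT3A) and 0.21 (mouse Ifnar2, which turned without Dnmt3a fl/fl replicate 2). In lane L005 IFNAR1 was 0.0069 in DNMT3A1 against ΔDNMT3A and IFNGR2 was 0.0473 between the isoform lines (0.0161 with the length trend removed), and in lane L006 IFNGR1 was 0.044 in DNMT3A1 against WT. Leave-one-out values ran from -0.0469 to 0.0098 for IFNAR1 and from -0.215 to 0.000596 for IRF9 in DNMT3A1 against ΔDNMT3A, from -0.0502 to 0.0038 for IFNGR1 in DNMT3A1 against WT, and from -0.0466 to 0.0224 for IFNGR2 between the isoform lines. In mice they ran from -0.122 to 0.109 for Ifngr1, -0.0156 to 0.511 for Ifnar2, -0.147 to 0.0807 for Jak2, -0.0991 to 0.0953 for Stat2, -0.0962 to 0.112 for Irf1 and -0.013 to 0.162 for Irf9. Stat2 was -0.000173 with RLE size factors and -0.0156 with upper-quartile scaling, and Irf1 was -0.0064 with the latter. The causes of these differences were not tested. Counts limit IRF9, JAK2 and mouse Ifnar2 most, and other members' Caco-2 counts were above 200 reads in each library.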
